A study of Homo sapiens with 9 samples.

Results

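The HOX genes encode transcription factors that bind DNA through a homeodomain and are grouped in 4 clusters, and every gene symbol of the count table with the form HOX, a cluster letter and a number was taken as a member. This gave 39 members of 26475 symbols, with 11 genes in the HOXA cluster, 10 in HOXB, 9 in HOXC and 9 in HOXD. Of these, 36 passed the filter on low counts that left 16417 genes to be tested. HOXA7, HOXB1 and HOXD12 did not pass it and are given by their counts only. On GRCh38 the clusters lie at chr7:27092993-27200106 (HOXA, minus strand), chr17:48528526-48729178 (HOXB, minus strand), chr12:53938765-54056030 (HOXC, plus strand) and chr2:176092891-176190907 (HOXD, plus strand), as annotated by GENCODE.

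HOX genes give cells along the head-to-tail axis of the embryo their positional identity. Within a cluster the order of the genes on the chromosome follows the order in which they are switched on in time and along the body axis, and genes with the same number in different clusters, called paralogs, descend from one ancestral gene. Trithorax-side enzymes such as MLL keep HOX clusters active, polycomb complexes keep them silent, retinoic acid induces the genes at the 3′ end, and HOX proteins bind DNA together with cofactors of the PBX, MEIS and PKNOX families.

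The RNA came from A375, an established human melanoma cell line that carries a BRAF mutation. The cells received DMSO, the vehicle, or TP-472 at 5 µM or at 10 µM over 24 h, and each group has 3 libraries, described as biological replicates. TP-472 is a small molecule that binds the bromodomains of BRD9 and BRD7, which are subunits of SWI/SNF chromatin remodelling complexes. All groups share 1 cell line, and the 3 DMSO libraries serve as the control of either dose. In bulk RNA of this kind, fewer cells of one state and less RNA per cell cannot be told apart.

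The homeobox, the stretch of 180 bases that encodes the homeodomain, is shown for HOXB9, called at the lower dose, and HOXA13, which fell the most, since it shows how far members of 2 clusters differ and where the reads could tell them apart. The sequences were read from GENCODE transcripts on GRCh38 and run 5′ to 3′ on the coding strand, and the capitals mark the 6 codons of the recognition helix, whose residues but not whose bases are the same in both. HOXB9 is at chr17:48622921-48623100 and HOXA13 at chr7:27198222-27198401, each on the minus strand and within 1 coding exon.
HOXB9: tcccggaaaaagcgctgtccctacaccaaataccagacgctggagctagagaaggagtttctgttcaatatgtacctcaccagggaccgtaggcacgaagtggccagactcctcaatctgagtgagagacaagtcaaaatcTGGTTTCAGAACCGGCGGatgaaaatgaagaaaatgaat
HOXA13: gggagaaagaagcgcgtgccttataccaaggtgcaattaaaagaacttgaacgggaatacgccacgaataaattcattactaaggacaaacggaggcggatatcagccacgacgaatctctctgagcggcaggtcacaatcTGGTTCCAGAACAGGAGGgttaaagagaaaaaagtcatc

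The homeoboxes of HOXA13 and HOXB9 were identical at 52.8% of bases. HOXA13 was closer to its paralogs, with 69.4% identity to HOXB13, 73.3% to HOXD13 and 76.1% to HOXC13. The longest run of identical bases between transcripts of HOXA13 and HOXC13 was 19, and between those of HOXB7 and HOXB8 it was 27. The longest runs over all pairs of members were 484 bases for HOXC4 and HOXC6, 65 for HOXB3 and HOXB4, 62 for HOXB3 and HOXD3 and 51 for HOXB6 and HOXB7.

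The window of 300 bases around the start of HOXA13 is shown because HOXA13 fell most. It lies at chr7:27200042-27200341 on GRCh38.p14, minus strand, runs from 250 bases before to 50 bases after the start in RefSeq, and has its CpG dinucleotides in capitals.
HOXA13 promoter: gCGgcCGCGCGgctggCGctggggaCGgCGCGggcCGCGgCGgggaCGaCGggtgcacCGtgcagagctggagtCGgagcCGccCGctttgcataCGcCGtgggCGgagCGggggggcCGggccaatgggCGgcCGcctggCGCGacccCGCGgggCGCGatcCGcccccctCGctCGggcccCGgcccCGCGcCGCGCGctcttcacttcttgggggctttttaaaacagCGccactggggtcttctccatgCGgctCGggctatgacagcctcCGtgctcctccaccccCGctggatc

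This window holds 44 CpG dinucleotides. The 27 windows on hand for 20 HOX genes had a median of 22, and all 35116 windows had a median of 14, at a GC content of 58.0% and 58.7%. The letters CCAAT, searched on both strands, stood in 66.7% of the HOX windows, the HOXA13 window included, and in 34.6% of all windows. TGATTGAT, the letters of a joint PBX and HOX motif, stood in only 2 of the 27 HOX windows (7.41%) and in 0.484% of all windows. TATAAA stood in 5 (18.5%) and in 11.5%, and TAATTA, the core letters bound by many homeodomains, in 2 (7.41%) and in 4.84%. HOXC4 and HOXC5 share 1 window and HOXA3 has several, so the windows are not independent, and none were on hand for HOXB2 to HOXB9.

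Expected counts summed to between 42483091 and 51298130 per library, and genes of ribosomal RNA took 8.20% to 19.9% of them. The line's melanocytic markers were uneven, with SOX10 at 417 CPM (counts in every 1000000 counts of the scaled library) and MITF at 31.9 CPM in DMSO. The 8 markers on the list summed to 445.6 to 465.3 CPM in DMSO, so SOX10 and MITF made up most of the sum and the others were low. TYR was at 0 in all 9 libraries, and none of the 6 markers tested was called at either dose. Among markers of other cell types, the fibroblast list of 4 genes summed to 28.03 to 29.98 CPM in DMSO and 9.94 to 20.5 CPM under TP-472, the keratinocyte list of 4 genes to 49.4 to 56.7 and 62.0 to 97.7 CPM, the endothelial pair to at most 2.67 CPM and the leukocyte pair to at most 0.537 CPM, with CD3E at 0. Of the 4 fibroblast genes tested, 1 (25%) was called lower at 5 µM and 2 (50%) at 10 µM, beside 2.72% and 10.5% of all genes tested. Of 3 keratinocyte genes tested, 1 (33.3%) was called higher at 10 µM, beside 8.57% of all genes. The part of these marker genes in the results on HOX genes was not tested. Replicate 1 at 10 µM stood apart. Transcript length and GC content explained 8.77% of its variation around the group mean, 3.99% and 4.04% in the other two libraries at 10 µM and at most 0.422% in the other groups, and the median member lay 0.17 log2 units above the group mean in it and 0.11 below it in replicate 3. The members have a median GC content of 55.2% and a median transcript length of 1912.5 bases, against 49.8% and 2456 bases over the tested genes with an annotation. BRD9 and BRD7 were not called at 10 µM against DMSO, with log2 fold changes of 0.27 and -0.19.

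DMSO-treated A375 cells expressed genes from all 4 clusters. Of the 39 members, 18 stood at 10 CPM or more in DMSO, 12 between 1 and 10 CPM and 9 under 1 CPM. Since longer transcripts collect more reads, levels of different genes are compared here as CPM per kb of transcript. On that scale HOXB2, a gene of hindbrain patterning, led with 36.2 ± 0.82 CPM per kb (SD, n = 3), followed by HOXC10 at 27.0 ± 1.36, HOXB7 at 19.2 ± 0.39, HOXB8 at 18.2 ± 1.03 and HOXB3 at 14.9 ± 0.74. HOXB7 and HOXB8 overlapped between libraries (18.9 to 19.7 and 17.5 to 19.4 CPM per kb), while HOXB2 and HOXC10 were each clear of the next gene. HOXA13 ranked 32 of 39 with 0.451 ± 0.057 CPM per kb, next to HOXC12 at 0.553 ± 0.10 and HOXA11 at 0.347 ± 0.018.

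**Figure D1:**
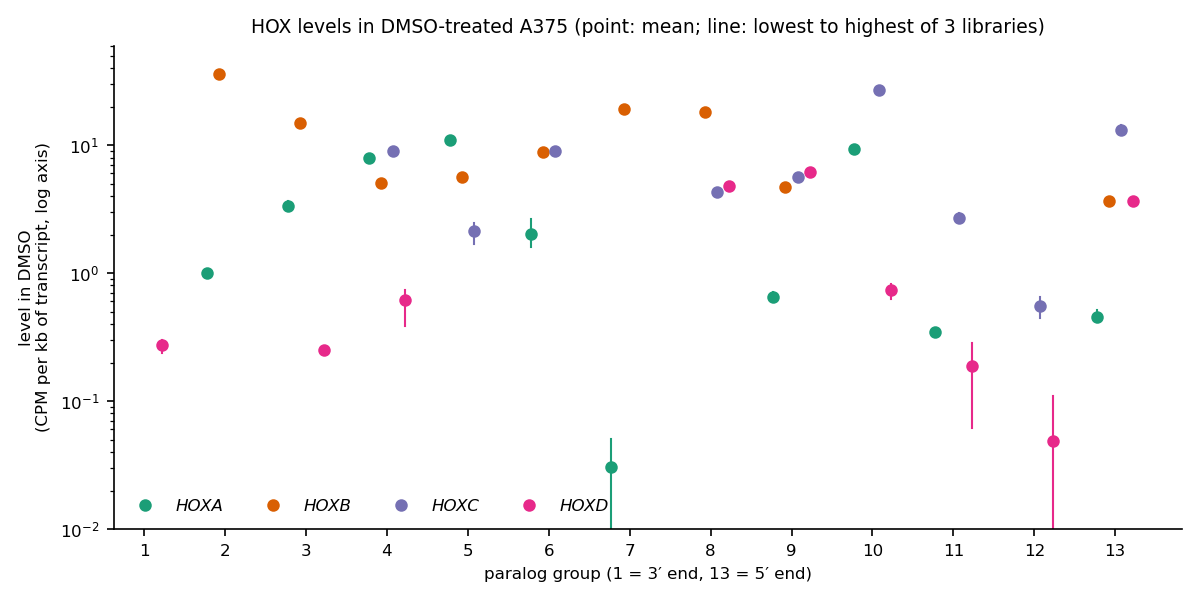
Level of the HOX genes described here in DMSO-treated A375 cells by paralog group, in CPM per kb of transcript on a log axis, with the cluster in colour, the mean of 3 libraries as a point and their range as a line; ranges that reach 0 end at the axis and HOXB1, with no count, is left out. HOXB2 and HOXC10 are highest, and HOXA7, HOXD12 and HOXD11 lowest of those with a count.

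The members under the filter had few reads. HOXB1 had no count in any library, and 3 counts, the limit that a count of 0 allows, correspond to 0.0577 to 0.0709 CPM. HOXA7 had expected counts of 4.07 and 5.39 in 2 DMSO libraries and 4.77 in 1 library at 5 µM and was at 0 in the other 6, and HOXD12 had 2 and 5 counts in DMSO replicates 2 and 3, 7 in 1 library at 10 µM and 0 elsewhere. All 36 members that passed exceeded the filter's level in at least 2 of 3 DMSO libraries.

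Summed over members, the HOXB cluster made up 44.5% of the HOX reads of DMSO cells, HOXC 32.2%, HOXA 16.8% and HOXD 6.58%. The HOXB sum was 203, 205 and 207 CPM in DMSO, 158, 169.6 and 165 CPM at 5 µM, and 169, 132 and 132 CPM at 10 µM. All TP-472 libraries lay below all DMSO libraries, and the mean at 10 µM was 0.704 times that in DMSO. The HOXA sum was 75.8, 78.1 and 78.2 CPM in DMSO, 74.3, 73.4 and 67.4 CPM at 5 µM, and 66.2, 59.98 and 57.8 CPM at 10 µM, or 0.793 times the DMSO mean at 10 µM, again without overlap. The HOXC sum was 151, 145 and 149 CPM in DMSO, 147.5, 151 and 146 CPM at 5 µM, and 174, 141 and 137 CPM at 10 µM. Here the groups overlapped, with replicate 1 at 10 µM above and the other two below all DMSO libraries. The HOXD sum was 29.6, 31.9 and 29.5 CPM in DMSO, 25.7, 28.95 and 23.3 CPM at 5 µM, and 29.8, 25.4 and 21.1 CPM at 10 µM, and overlapped at 10 µM. Without replicate 1 at 10 µM the ratios to DMSO were 0.644 for HOXB, 0.762 for HOXA, 0.935 for HOXC and 0.767 for HOXD. These sums are descriptions and carry no test.

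**Figure D2:**
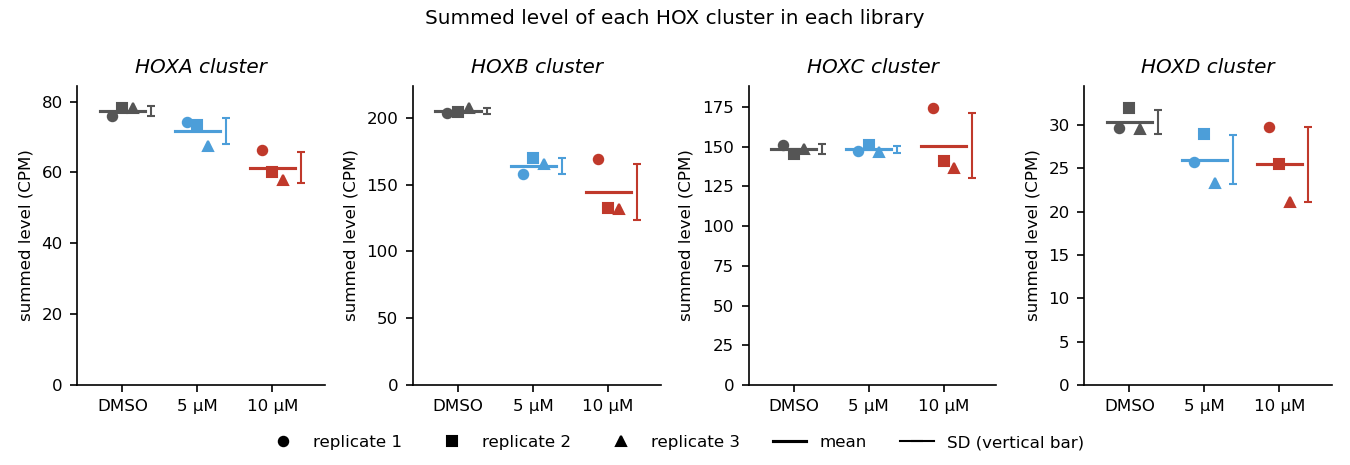
Summed level of the members of each HOX cluster in CPM (vertical axis, from 0) in each library of the DMSO, 5 µM and 10 µM groups, with the mean as a horizontal line and the SD as a bar. HOXB and HOXA libraries under TP-472 lie below all DMSO libraries, while HOXC spreads from 137 to 174 CPM at 10 µM around the DMSO libraries.

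Which HOX genes changed was asked gene by gene with edgeR's quasi-likelihood test, and a gene was called when its level changed at least 1.5-fold with an adjusted p below 0.05. At 10 µM against DMSO 6 of the 36 members tested (16.7%) were called lower, namely HOXB2, HOXB5, HOXB6 and HOXB8 of the HOXB cluster and HOXA3 and HOXA13 of the HOXA cluster, where 10.5% of all genes tested were called lower. No member was called higher, where 8.57% of all genes were. At the adjusted p alone, 11 members (30.6%) were lower against 18.0% of all genes, with HOXA4, HOXA5, HOXB3, HOXB7 and HOXB9 added, and 1 member, HOXC13, was higher (2.78%) against 16.4% of all genes. In 15 members (41.7%) all 10 µM libraries lay below all DMSO libraries, as in 26.0% of all genes, and in 2, HOXA11 and HOXC13, they lay above (5.56%), as in 23.4% of all genes. The median log2 fold change was -0.56 over the 9 tested members of HOXB, -0.53 over 10 of HOXA, -0.26 over 8 of HOXD and 0.04 over 9 of HOXC, beside 0.01 over all genes tested.

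At 5 µM against DMSO 2 members (5.56%), HOXB8 and HOXB9, were called lower, where 2.72% of all genes were, and none was called higher, where 2.14% were. At the adjusted p alone the members lower were the same 2, against 5.81% of all genes, and none was higher, against 4.40%. In 14 members (38.9%) all 5 µM libraries lay below all DMSO libraries, as in 25.0% of all genes, and in 1, HOXA11, they lay above (2.78%), as in 23.7% of all genes. Between the doses 2 members (5.56%), HOXA13 and HOXB5, were lower at 10 µM than at 5 µM, where 2.59% of all genes were, and none was higher, where 1.42% were. No gene of the HOXC or HOXD cluster was called in any of the 3 comparisons by edgeR, DESeq2 or limma-voom on all libraries. At an unadjusted p below 0.05, HOXC13 was higher and HOXC10 lower at 10 µM and HOXD8 lower at 5 µM. HOXC13 was also the only member of any cluster that was higher at an unadjusted p below 0.05, and DESeq2, limma-voom and edgeR's likelihood ratio test called 0 members higher in each comparison. Of members lower, all 3 of these methods called 3 at 5 µM, with HOXA13 added, and 2 between the doses. At 10 µM DESeq2 called 7, with HOXA9 added, limma-voom 7, with HOXA2 added, and the likelihood ratio test the same 6. The shares of all genes called by these 3 methods, or passing at an unadjusted p, are not given here. These counts of members therefore cannot be set beside a background.

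Replicate 1 at 10 µM weighed on these counts. Without it, 9 members were called lower at 10 µM, with HOXA2, HOXB3, HOXB9 and HOXD4 added and HOXA3 lost. At 5 µM 4 members were then called lower, with HOXA13 and HOXC12 added, and between the doses 4, with HOXA2 and HOXB8 added. The shares of all genes called without this library are not given here, so these counts cannot be set beside a background. With 3 libraries against 3, an exact permutation test of a single gene could not give a p below 0.1, so these calls rest on the spread shared between genes in the fit.

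**Figure D3:**
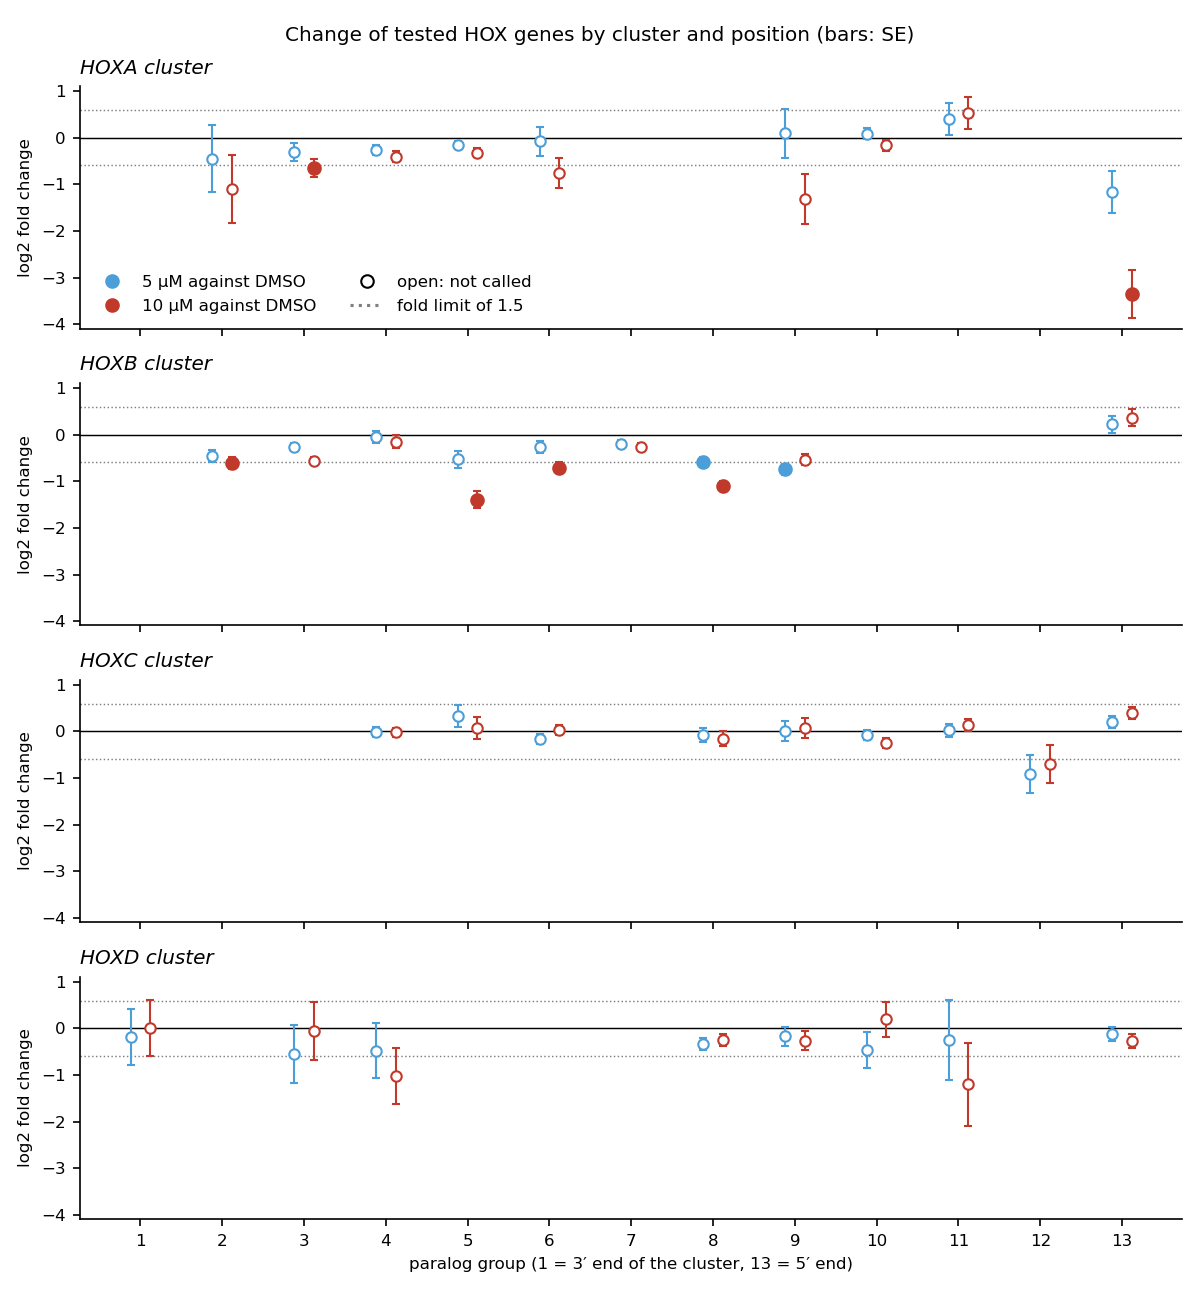
Log2 fold change of the tested HOX genes described here (vertical axis, bars are the SE) by paralog group (horizontal axis, 1 at the 3′ end and 13 at the 5′ end) in 1 panel per cluster, for 5 µM and 10 µM against the same DMSO libraries; filled points are called and dotted lines mark the fold limit of 1.5. The filled points lie in HOXA and HOXB, and HOXA13 at -3.34 is the lowest.

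In the HOXB cluster, 8 of the 9 tested genes had values below 0 at 10 µM, from HOXB2 to HOXB9, and HOXB13 lay above 0. The largest change was that of HOXB5, a gene of trunk and gut patterning. HOXB5 measured 11.8, 11.5 and 11.3 CPM in DMSO, 8.59, 8.13 and 7.25 CPM at 5 µM, and 5.60, 3.27 and 4.28 CPM at 10 µM. No library of one group reached into another, with DMSO highest and 10 µM lowest. The log2 fold change of HOXB5 at 10 µM against DMSO was -1.40 ± 0.18 (SE, adjusted p = 0.000313, edgeR), and 10 µM also lay below 5 µM by -0.87 ± 0.18 (SE, adjusted p = 0.0181, edgeR). The change at 5 µM was -0.53 ± 0.18 (SE, adjusted p = 0.0924, edgeR). The difference between the doses was no longer called without replicate 1 at 5 µM (-0.82, adjusted p = 0.0725, edgeR) or replicate 2 at 5 µM (-0.86, adjusted p = 0.0686, edgeR).

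HOXB8 in mice takes part in the patterning of the trunk skeleton and in blood progenitors. It was the only member called at both doses in edgeR's quasi-likelihood fit of all libraries. DESeq2, limma-voom and edgeR's likelihood ratio test also called HOXA13 at both doses. HOXB8 was at 22.7, 24.9 and 22.5 CPM in DMSO, 13.5, 16.3 and 16.8 CPM at 5 µM, and 11.9, 10.6 and 10.1 CPM at 10 µM. The 3 groups did not overlap, with DMSO highest and 10 µM lowest. Against DMSO the log2 fold change was -0.59 ± 0.11 (SE, adjusted p = 0.00960, edgeR) at 5 µM and -1.10 ± 0.11 (SE, adjusted p = 7.23e-05, edgeR) at 10 µM. Between the doses it was -0.52 ± 0.11 (SE, adjusted p = 0.0228, edgeR), which passed the adjusted p but not the fold limit. The call at 5 µM was lost without DMSO replicate 2 (-0.54) or without replicate 1 at 5 µM (-0.50), and it fell just short of the fold limit with upper-quartile factors (-0.58, adjusted p = 0.0126, edgeR) and with the filter of 1 CPM in 3 libraries (-0.58, adjusted p = 0.00944, edgeR). The call at 10 µM held without any 1 library.

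HOXB9, a gene of thoracic patterning, changed at the lower dose. HOXB9 stood at 11.8, 12.4 and 12.4 CPM in DMSO, 6.44, 7.84 and 7.55 CPM at 5 µM, and 9.05, 8.21 and 7.99 CPM at 10 µM. All TP-472 libraries lay below all DMSO libraries, and those at 10 µM lay above those at 5 µM. The log2 fold change was -0.75 ± 0.12 (SE, adjusted p = 0.00322, edgeR) at 5 µM. At 10 µM it was -0.54 ± 0.11 (SE, adjusted p = 0.00543, edgeR), under the fold limit, and between the doses it was 0.21 ± 0.12 (SE, adjusted p = 0.298, edgeR), which did not pass.

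HOXB6 and HOXB2 were called at 10 µM. HOXB6 measured 16.3, 15.6 and 16.4 CPM in DMSO, 12.7, 15.5 and 11.9 CPM at 5 µM, and 10.2, 10.5 and 8.88 CPM at 10 µM. At 10 µM all libraries lay below DMSO, whereas at 5 µM replicate 2 was only just under the lowest DMSO library. HOXB6 changed by -0.71 ± 0.12 (SE, adjusted p = 0.00160, edgeR) at 10 µM, and -0.27 ± 0.12 at 5 µM. HOXB2 was at 55.6, 55.9 and 57.99 CPM in DMSO, 36.6, 43.8 and 43.3 CPM at 5 µM, and 44.99, 32.3 and 33.7 CPM at 10 µM. The DMSO libraries stood clear of the rest, and the doses overlapped because replicate 1 at 10 µM was above all libraries at 5 µM. The log2 fold change of HOXB2 at 10 µM against DMSO was -0.61 ± 0.13 (SE, adjusted p = 0.00487, edgeR). The change of HOXB2 at 5 µM was -0.45 ± 0.13 (SE, adjusted p = 0.0512, edgeR). Its call at 10 µM was lost under 4 of 23 alternative settings, among them without replicate 2 (-0.53) or replicate 3 (-0.55) at 10 µM.

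The other HOXB genes were not called. HOXB3 stood at 25.9, 28.3 and 28.2 CPM in DMSO, 22.3, 23.7 and 22.7 CPM at 5 µM, and 19.8, 18.6 and 17.7 CPM at 10 µM. HOXB3, another gene of the hindbrain end of the cluster, did not overlap between groups, and its log2 fold change at 10 µM was -0.56 ± 0.08 (SE, adjusted p = 0.000701, edgeR), just under the fold limit. HOXB7 measured 26.96, 25.97 and 26.1 CPM in DMSO, 22.5, 23.2 and 23.03 CPM at 5 µM, and 24.8, 20.1 and 20.8 CPM at 10 µM. HOXB7, which has been linked to growth factor production in melanoma, lay below DMSO in all 6 TP-472 libraries by a small margin, with -0.27 ± 0.09 (SE, adjusted p = 0.0481, edgeR) at 10 µM. HOXB4 was at 19.7, 17.8 and 19.2 CPM in DMSO, 18.9, 18.2 and 17.4 CPM at 5 µM, and 20.97, 16.01 and 14 CPM at 10 µM. HOXB4, a gene known for its role in blood stem cells, overlapped in all groups, and its log2 fold change at 10 µM of -0.15 ± 0.14 had a 95% interval of -0.46 to 0.15, inside the fold limit of 0.58 on this scale. HOXB13 stood at 12.6, 12.4 and 13.2 CPM in DMSO, 16.1, 12.9 and 15.5 CPM at 5 µM, and 21.7, 12.9 and 14.4 CPM at 10 µM. HOXB13, which stands apart from the rest of the cluster on the chromosome and is known from the prostate, had replicate 1 at 10 µM well above the other libraries, and its change of 0.36 ± 0.18 did not pass (adjusted p = 0.148, edgeR).

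**Figure D4:**
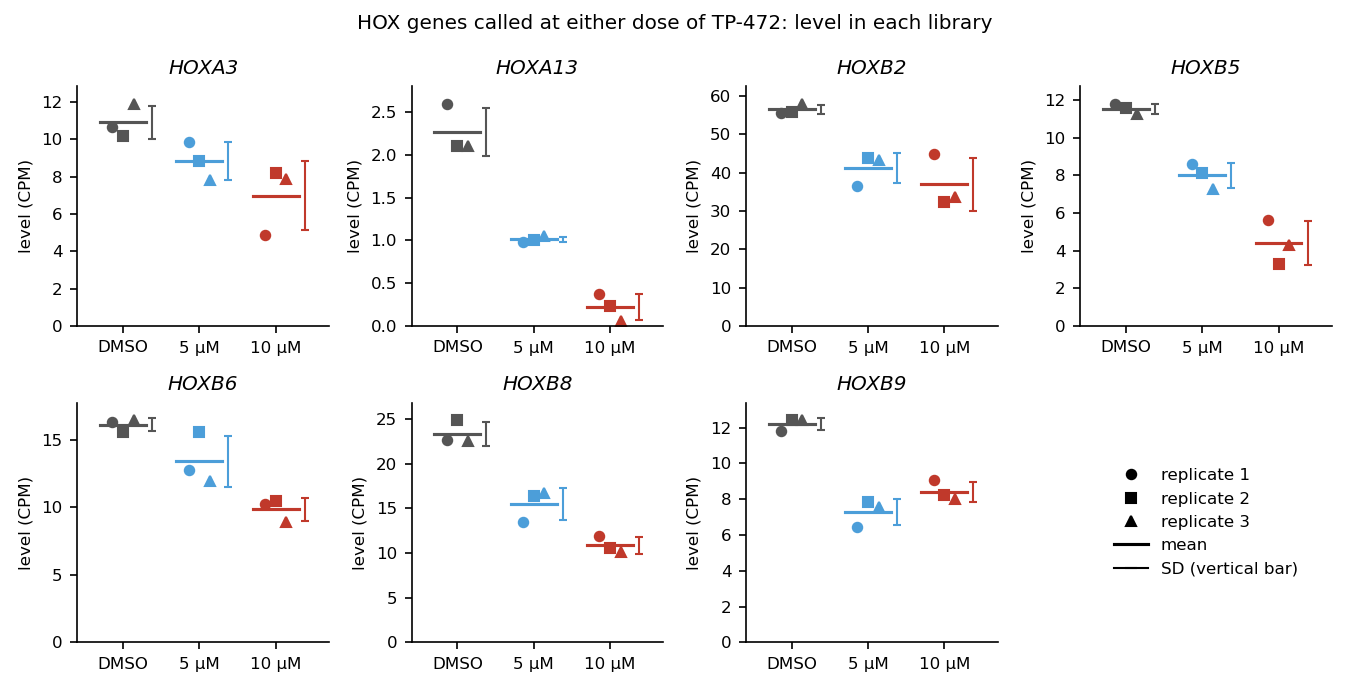
Level in CPM (vertical axes, from 0) of the 7 HOX genes called in at least 1 comparison, in each library of the DMSO, 5 µM and 10 µM groups, with replicates by symbol, the mean as a line and the SD as a bar. HOXA13, HOXB5 and HOXB8 step down from DMSO to 5 µM to 10 µM without overlap, and HOXB9 is lowest at 5 µM.

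In the HOXA cluster the 2 called genes sit at different positions, HOXA3 near the 3′ end and HOXA13 at the 5′ end. HOXA13, which patterns the hand, foot and urogenital tract, fell the most of all members. HOXA13 measured 2.60, 2.099 and 2.104 CPM in DMSO, 0.986, 1.01 and 1.05 CPM at 5 µM, and 0.372, 0.231 and 0.0611 CPM at 10 µM. Each group was clear of the next. The expected counts behind these levels were 129, 102 and 89 in DMSO, 45, 52 and 51 at 5 µM, and 18, 12 and 3 at 10 µM, so the level at 10 µM rests on few reads. The log2 fold change of HOXA13 at 10 µM against DMSO was -3.34 ± 0.51 (SE, adjusted p = 0.000813, edgeR), a level of 0.0986 times that in DMSO with a 95% interval of the log2 fold change of -4.48 to -2.21. Between the doses it was -2.18 ± 0.50 (SE, adjusted p = 0.0273, edgeR), and at 5 µM against DMSO -1.16 ± 0.45 (SE, adjusted p = 0.145, edgeR), which did not pass. The call between the doses was lost without any 1 of the DMSO or 5 µM libraries, at log2 fold changes of -2.16 to -2.21 and adjusted p of 0.0598 to 0.0828 (edgeR), and the change at 5 µM was called without replicate 1 or replicate 3 at 10 µM, at -1.16 in both. DESeq2 (adjusted p = 0.0230), limma-voom (adjusted p = 0.0366), edgeR's likelihood ratio test (adjusted p = 0.0410) and edgeR's fit of these 2 groups alone (adjusted p = 0.00239) also called HOXA13 lower at 5 µM, at log2 fold changes of -1.15 to -1.16. The other members of paralog group 13 were not called, so that HOXA13 differed in its call from HOXB13, HOXC13 and HOXD13, although the difference between paralogs was not itself tested.

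HOXA3, a gene of thymus and parathyroid development, was called at 10 µM. HOXA3 was at 10.7, 10.2 and 11.9 CPM in DMSO, 9.86, 8.87 and 7.80 CPM at 5 µM, and 4.85, 8.19 and 7.89 CPM at 10 µM. The 3 libraries at 10 µM lay below DMSO, and replicate 1 was lowest at 4.85 CPM. The log2 fold change of HOXA3 at 10 µM against DMSO was -0.65 ± 0.19 (SE, adjusted p = 0.0261, edgeR). Without replicate 1 at 10 µM the log2 fold change was -0.44, under the fold limit, and without any 1 of the 3 DMSO libraries the call was lost as well. Its reads are also divided with those of neighbouring genes.

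HOXA4 and HOXA5, next to HOXA3, were lower by the adjusted p alone. HOXA4 stood at 13, 13.5 and 14.4 CPM in DMSO, 11, 11.99 and 11.2 CPM at 5 µM, and 11.4, 9.07 and 10.4 CPM at 10 µM. HOXA5 measured 17.97, 18.7 and 18.3 CPM in DMSO, 16.1, 18.1 and 15.2 CPM at 5 µM, and 14.8, 15.3 and 13.8 CPM at 10 µM. Both lay below all DMSO libraries in the 3 libraries at 10 µM, with log2 fold changes of -0.40 ± 0.11 (SE, adjusted p = 0.0187, edgeR) for HOXA4 and -0.32 ± 0.09 (SE, adjusted p = 0.0245, edgeR) for HOXA5, a gene of lung and trunk patterning. HOXA6 was at 1.77, 2.61 and 1.58 CPM in DMSO, 2.02, 2.23 and 1.42 CPM at 5 µM, and 0.950, 1.48 and 1.10 CPM at 10 µM. HOXA6 did not overlap between DMSO and 10 µM but varied between DMSO libraries, and its change of -0.76 ± 0.31 did not pass (adjusted p = 0.0908, edgeR).

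HOXA2 stood at 1.83, 1.69 and 1.89 CPM in DMSO, 1.23, 1.57 and 1.17 CPM at 5 µM, and 1.92, 0.0961 and 0.509 CPM at 10 µM. HOXA2, a gene of the pharyngeal arches, showed the widest spread of the cluster, since replicate 1 at 10 µM was at the level of DMSO and replicates 2 and 3 were far below it. Its log2 fold change at 10 µM of -1.10 ± 0.73 therefore had a 95% interval of -2.72 to 0.52. HOXA9 measured 0.926, 0.864 and 1.02 CPM in DMSO, 1.27, 0.484 and 1.25 CPM at 5 µM, and 0.207, 0.288 and 0.632 CPM at 10 µM. HOXA9, known as a partner of MEIS1 in acute leukaemia, was lower in all 3 libraries at 10 µM than in DMSO, and its change of -1.31 ± 0.54 did not pass (adjusted p = 0.0892, edgeR).

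HOXA10 was at 19.98, 21.4 and 19.1 CPM in DMSO, 22.9, 21.1 and 20.3 CPM at 5 µM, and 21.6, 16.8 and 15.7 CPM at 10 µM. HOXA10, a gene of uterine and limb patterning, overlapped between DMSO and 10 µM, with a log2 fold change of -0.16 ± 0.12 whose 95% interval stayed within the fold limit. HOXA11 stood at 0.765, 0.844 and 0.780 CPM in DMSO, 1.07, 0.930 and 1.17 CPM at 5 µM, and 1.57, 0.865 and 1.02 CPM at 10 µM. HOXA11 was the one member whose libraries lay above all DMSO libraries at both doses, by a log2 fold change of 0.53 ± 0.34 at 10 µM that did not pass (adjusted p = 0.267, edgeR).

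The HOXC cluster, the second most abundant, showed no called gene. Of its 9 genes, 6 had 95% intervals at 10 µM that stayed within the 1.5-fold limit in both directions, namely HOXC4, HOXC6, HOXC8, HOXC9, HOXC10 and HOXC11. HOXC10 measured 54.9, 49.6 and 52.6 CPM in DMSO, 52.1, 49.8 and 47.5 CPM at 5 µM, and 51.2, 40.7 and 40.8 CPM at 10 µM. HOXC10, a gene of lumbar and hindlimb patterning, was below DMSO in replicates 2 and 3 at 10 µM and within DMSO in replicate 1, with a log2 fold change of -0.24 ± 0.10. HOXC6 was at 21.1, 22.3 and 19.8 CPM in DMSO, 17.9, 19.6 and 19.4 CPM at 5 µM, and 24.8, 19.9 and 20.3 CPM at 10 µM. HOXC4 stood at 14.4, 14.3 and 14.2 CPM in DMSO, 15.7, 13.4 and 13.6 CPM at 5 µM, and 14.96, 14.9 and 12.5 CPM at 10 µM. HOXC4 overlapped between all groups and HOXC6 between DMSO and 10 µM, with log2 fold changes at 10 µM of -0.02 ± 0.11 and 0.04 ± 0.10. Because these 2 genes share a long run of transcript, their separate levels are uncertain.

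HOXC8 measured 8.17, 8.21 and 7.78 CPM in DMSO, 6.29, 8.73 and 7.86 CPM at 5 µM, and 8.51, 6.36 and 6.89 CPM at 10 µM. HOXC9 was at 8.47, 8.21 and 8.79 CPM in DMSO, 8.85, 8.81 and 8.03 CPM at 5 µM, and 12.5, 7.98 and 6.32 CPM at 10 µM. HOXC8 and HOXC9, genes of thoracic patterning, had log2 fold changes at 10 µM of -0.15 ± 0.16 and 0.07 ± 0.21, and replicate 1 was the highest of the 3 libraries at 10 µM for both. HOXC11 stood at 7.85, 6.63 and 7.05 CPM in DMSO, 6.55, 6.89 and 8.42 CPM at 5 µM, and 7.99, 7.31 and 8.40 CPM at 10 µM. HOXC11 overlapped between groups, at 0.14 ± 0.14. HOXC5 measured 3.96, 3.50 and 2.67 CPM in DMSO, 4.78, 3.22 and 4.84 CPM at 5 µM, and 2.83, 3.94 and 3.95 CPM at 10 µM. HOXC5 also overlapped, at 0.08 ± 0.24, with a 95% interval of -0.45 to 0.61 that reached past the fold limit on one side.

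HOXC13, which is needed for hair and nails, was the member that came closest to a rise. HOXC13 was at 30.3, 30.6 and 34.5 CPM in DMSO, 34.3, 39.5 and 36.2 CPM at 5 µM, and 51.1, 38.6 and 36.1 CPM at 10 µM. Its 10 µM libraries lay above all DMSO libraries, with replicate 1 the highest, and the log2 fold change was 0.40 ± 0.13 (SE, adjusted p = 0.0389, edgeR), under the fold limit. HOXC12 stood at 2.15, 1.89 and 1.49 CPM in DMSO, 1.05, 1.22 and 0.677 CPM at 5 µM, and 0.558, 1.56 and 1.30 CPM at 10 µM. HOXC12 had fewer reads and its values overlapped at 10 µM, with log2 fold changes of -0.91 ± 0.41 at 5 µM and -0.69 ± 0.41 at 10 µM, neither of which passed (adjusted p = 0.211 and 0.223, edgeR).

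The HOXD cluster was the least abundant and had wide intervals. Of its 8 tested genes, only HOXD8 had a 95% interval at 10 µM within the 1.5-fold limit. HOXD8 measured 6.84, 7.20 and 6.64 CPM in DMSO, 5.19, 5.66 and 5.58 CPM at 5 µM, and 5.93, 6.11 and 5.26 CPM at 10 µM. All 6 TP-472 libraries of HOXD8 lay below DMSO, with log2 fold changes of -0.33 ± 0.13 and -0.26 ± 0.13. HOXD9 was at 11.6, 11.9 and 10.8 CPM in DMSO, 8.85, 13.3 and 8.35 CPM at 5 µM, and 11.8, 8.96 and 7.89 CPM at 10 µM. HOXD13 stood at 7.83, 8.48 and 8.13 CPM in DMSO, 8.78, 7.28 and 6.51 CPM at 5 µM, and 7.73, 6.61 and 5.81 CPM at 10 µM. HOXD9 overlapped between groups and HOXD13, a gene of digit patterning, was lower in the 3 libraries at 10 µM than in DMSO, at -0.26 ± 0.20 and -0.28 ± 0.15. HOXD10 measured 1.25, 1.65 and 1.54 CPM in DMSO, 1.14, 0.678 and 1.38 CPM at 5 µM, and 2.52, 1.29 and 1.24 CPM at 10 µM. HOXD10 overlapped, at 0.19 ± 0.38, with replicate 1 at 10 µM highest.

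HOXD1, HOXD3, HOXD4 and HOXD11 had group means under 1 CPM in every group, and their log2 fold changes at 10 µM ran from -1.20 for HOXD11 to 0.01 for HOXD1. None passed the test, and with SEs of 0.59 to 0.89 a change of 1.5-fold was not detectable in them at this depth.

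Several HOX genes overlap each other or antisense RNAs, and RSEM divides the reads that fit more than one gene. The expected counts of the members that were not whole numbers added up to whole numbers, within 0.03, in all 9 libraries once 8 groups of neighbouring genes were summed, and 7 of the 8 groups join genes on opposite strands. The summed groups were therefore tested in place of their genes. HOXB-AS3, HOXB5 and HOXB6 together stood at 29.5 ± 0.44 CPM in DMSO, 22.8 ± 2.21 at 5 µM and 15.1 ± 1.05 at 10 µM (SD, n = 3), with a log2 fold change at 10 µM of -0.97 ± 0.10 (SE, adjusted p = 5.46e-05, edgeR), and -0.60 ± 0.10 between the doses (adjusted p = 0.00489, edgeR). Both passed the fold limit. HOXA3, HOXA4 and HOXA-AS2 together changed by -0.47 ± 0.09 at 10 µM (adjusted p = 0.00254, edgeR), under the fold limit, so the call of HOXA3 did not hold for the sum.

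HOXA6, HOXA7 and HOXA-AS3 together summed to 2.56 ± 0.53 CPM in DMSO and 1.37 ± 0.45 CPM at 10 µM, a log2 fold change of -0.90 ± 0.30 that was called (adjusted p = 0.0410, edgeR). HOXB3 with HOXB-AS1 changed by -0.53 ± 0.10 (adjusted p = 0.00250, edgeR), under the fold limit. HOXC13 with HOXC13-AS changed by 0.39 ± 0.14 (adjusted p = 0.0536, edgeR), which no longer passed. HOXC4, HOXC5 and HOXC6, which lie on the same strand, summed to 38.8 ± 1.83 CPM in DMSO and 39.4 ± 2.95 CPM at 10 µM, a log2 fold change of 0.02 ± 0.08. HOXA10 with HOXA10-AS, and HOXD1 with HAGLR, were not called, at -0.17 ± 0.12 and -0.43 ± 0.17. HOXA13, HOXB2, HOXB8 and HOXB9 had whole counts in all 9 libraries and were in none of these groups.

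Of 22 noncoding RNAs of the clusters, 14 were tested and 1 (7.14%) was called at 10 µM, lower, where 10.5% of all genes tested were, and none at 5 µM. This was HOXB-AS3, an antisense RNA that overlaps exons of HOXB6. HOXB-AS3 was at 1.77, 1.93 and 1.94 CPM in DMSO, 1.25, 1.47 and 1.56 CPM at 5 µM, and 0.434, 0.942 and 1.10 CPM at 10 µM. Its log2 fold change at 10 µM was -1.18 ± 0.35 (SE, adjusted p = 0.0266, edgeR). Since its reads are divided with HOXB6, and hardly with HOXB5 (whole counts in 8 of 9 libraries), HOXB-AS3 is not a separate measurement. HOTAIR, the RNA of the HOXC cluster known for its link to polycomb, stood at 3.44 CPM in DMSO and 2.53 CPM at 10 µM and was not called (adjusted p = 0.180, edgeR). HOTAIRM1, a noncoding RNA of the HOXA cluster, stood at 3.11 and 4.46 CPM and was not called either (adjusted p = 0.0719, edgeR). The hairpins of MIR10B, MIR196A1, MIR196A2, MIR196B and MIR615 had no count in any library.

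Flanking genes were taken as the 3 nearest protein-coding genes on each side whose symbols are in the count table, 24 in all, of which 21 were tested. They lay from 8.98 kb (EVX2) to 1088 kb (CHN1) from their cluster, so not all are close neighbours. Genes listed under another symbol would have been passed over. At 10 µM 3 (14.3%) were called lower and 1 (4.76%) higher, beside 10.5% and 8.57% of all genes tested, and none at 5 µM or between the doses. On the HOXC side, CBX5, which encodes a heterochromatin protein, stood at 173 CPM in DMSO against 97.0 CPM at 10 µM (log2 fold change -0.83 ± 0.11, adjusted p = 0.000276, edgeR), and HNRNPA1, an RNA-binding protein gene, from 1927 to 1205 CPM (-0.68 ± 0.07, adjusted p = 7.91e-05, edgeR). Both lie beyond the 3′ end of HOXC, 175 and 224 kb away. HIBADH, a mitochondrial enzyme gene 325 kb beyond HOXA13, changed by -0.77 ± 0.11 (adjusted p = 0.000429, edgeR), and EVX1, the homeobox gene between them, was at 0.0385 CPM or less in every library. SNX11, a sorting nexin gene 405.5 kb beyond the 3′ end of HOXB, was higher by 0.61 ± 0.08 (adjusted p = 0.000337, edgeR). The nearest tested neighbours, SKAP2 at HOXA, TTLL6 at HOXB, SMUG1 at HOXC and MTX2 at HOXD, were not called.

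**Figure D5:**
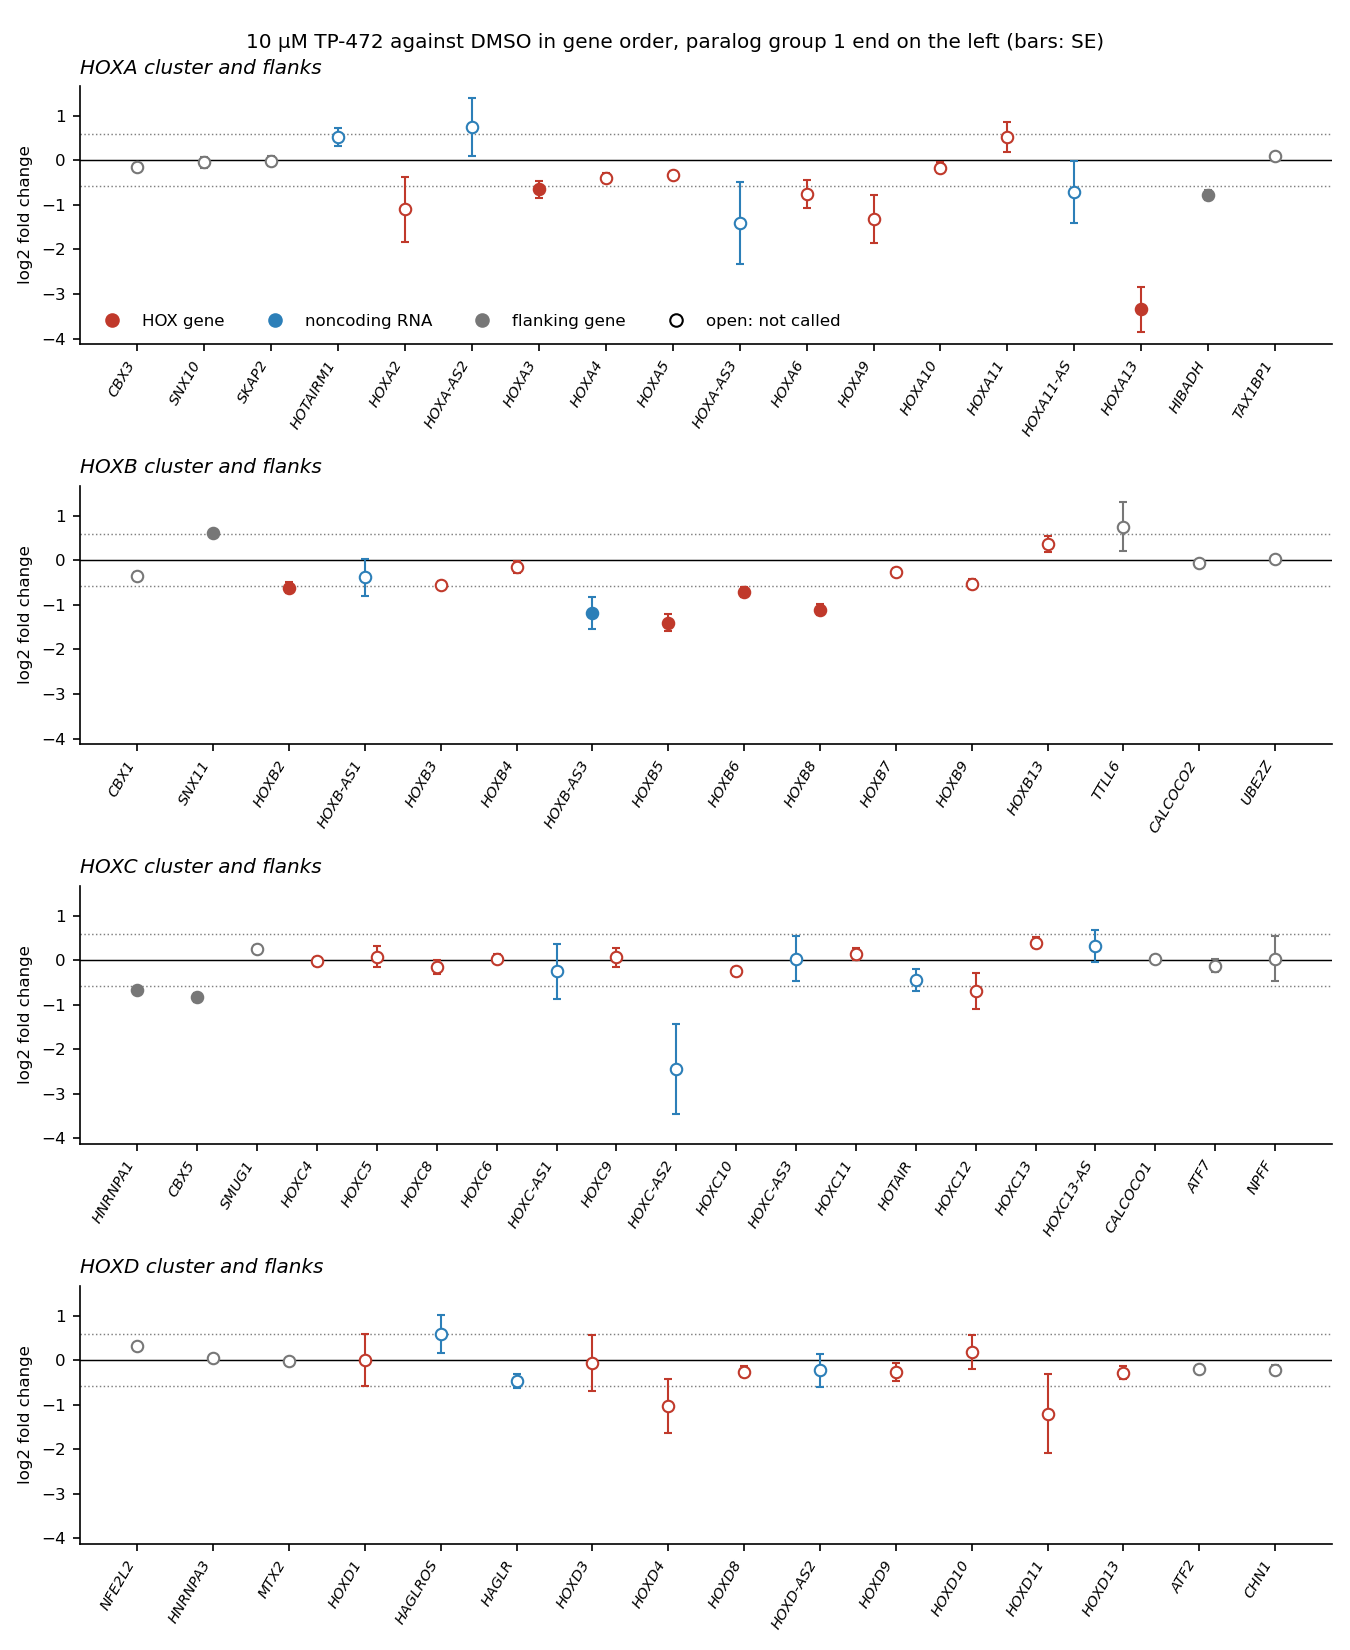
Log2 fold change at 10 µM against DMSO (vertical axis, bars are the SE) of the tested HOX genes described here, noncoding RNAs and flanking protein-coding genes. Genes are ordered by their midpoint from the paralog group 1 end on the left, with 1 panel per cluster. Filled points are called and dotted lines mark the fold limit of 1.5. Called HOX genes stand beside members that were not called in HOXA and HOXB, and among the flanking genes CBX5, HNRNPA1, HIBADH and SNX11 are called.

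The genes that act with HOX proteins or on HOX clusters were described from lists written from general knowledge. Their counts are given beside the 10.5% of all genes tested that were called lower at 10 µM and the 8.57% called higher, and no list was tested against these shares. Of 9 TALE cofactors, 2 (22.2%) were called lower and 1 (11.1%) higher at 10 µM. PBX3 stood at 22.1, 20.5 and 19.95 CPM in DMSO, 14.9, 17.5 and 16.4 CPM at 5 µM, and 14.5, 12.5 and 11.2 CPM at 10 µM. PBX3, a DNA-binding partner of many HOX proteins, changed by -0.71 ± 0.11 (SE, adjusted p = 0.00110, edgeR) at 10 µM. MEIS1 measured 3.92, 3.37 and 4.16 CPM in DMSO, 4.53, 3.31 and 4.27 CPM at 5 µM, and 6.28, 6.58 and 5.44 CPM at 10 µM. MEIS1, another cofactor of HOX proteins, changed by 0.68 ± 0.17 (SE, adjusted p = 0.0136, edgeR) in the other direction. Both were clear of DMSO at 10 µM.

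Of 13 MLL and trithorax-side genes, 2 (15.4%, beside 10.5% of all genes) were called lower and none higher at 10 µM, and none at 5 µM. PSIP1, whose product tethers MLL to chromatin, went from 234 to 129 CPM (log2 fold change -0.86 ± 0.07 (SE, adjusted p = 1.03e-05, edgeR)), and DOT1L, the H3K79 methyltransferase, from 58.3 to 38.5 CPM (-0.60 ± 0.09 (SE, adjusted p = 0.000661, edgeR)). Of 27 polycomb genes, 5 (18.5%, beside 10.5% of all genes) were called lower and none higher at 10 µM, and none at 5 µM. PHF19 and PCGF2 code for accessory and core subunits. The changes at 10 µM were -1.05 ± 0.08 (SE, adjusted p = 1.1e-05, edgeR) for PHF19, -0.66 ± 0.07 (SE, adjusted p = 6.06e-05, edgeR) for PHC2, -0.63 ± 0.08 (SE, adjusted p = 0.000204, edgeR) for PCGF2 and -0.85 ± 0.11 (SE, adjusted p = 0.000325, edgeR) for CBX7, and CBX2 was the other gene called.

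Of 14 retinoic acid genes tested, 2 (14.3%) were called lower at 5 µM, where 2.72% of all genes tested were. At 10 µM 3 (21.4%) were called lower and 1 (7.14%) higher. STRA6, the cellular retinol transporter, had 165 CPM without TP-472 and 72.6 CPM with 5 µM and 28.9 CPM with 10 µM, changes of -1.19 ± 0.07 (SE, adjusted p = 1.5e-05, edgeR) and -2.51 ± 0.07 (SE, adjusted p = 3.87e-08, edgeR). DHRS3, a retinaldehyde reductase, changed by -1.01 ± 0.12 (SE, adjusted p = 0.000804, edgeR) at 5 µM and -1.37 ± 0.12 (SE, adjusted p = 2.53e-05, edgeR) at 10 µM, and the receptor gene RARG by -0.59 ± 0.07 (SE, adjusted p = 0.000117, edgeR) at 10 µM. RDH10, which makes retinaldehyde, was higher at 10 µM by 0.67 ± 0.12 (SE, adjusted p = 0.00184, edgeR). Of 7 CTCF and cohesin genes, RAD21 was called lower at 10 µM (-0.65 ± 0.09 (SE, adjusted p = 0.000398, edgeR)).

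Other homeobox genes of the ANTP class, the class that holds the HOX genes, moved in both directions. Of 29 tested, 6 (20.7%) were called higher and 3 (10.3%) lower at 10 µM. At 5 µM 1 (3.45%) was called higher and 2 (6.9%) lower, beside 2.14% and 2.72% of all genes tested. MEOX2 was at 66.7, 65.6 and 66.4 CPM in DMSO, 31.8, 31.1 and 29.1 CPM at 5 µM, and 18.96, 19.1 and 15.5 CPM at 10 µM. MEOX2, a mesoderm homeobox gene, was the one with the smallest adjusted p, at -1.89 ± 0.10 (SE, adjusted p = 8.48e-07, edgeR). EN2 changed by 1.09 ± 0.10 (SE, adjusted p = 4.17e-05, edgeR) and HHEX by -0.59 ± 0.09 (SE, adjusted p = 0.000628, edgeR). Of the 8 ParaHox and EVX genes only PDX1, the pancreatic homeobox gene, was tested, and it was called higher at 10 µM (1.29 ± 0.31 (SE, adjusted p = 0.00906, edgeR)) from 0.825 CPM in DMSO to 2.02 CPM.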

How the data were processed

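The mRNA of 9 A375 libraries, 3 per group, was sequenced after strand-specific (dUTP) library preparation. The methods describe purification on oligo-dT beads, while the series' design text describes depletion of ribosomal RNA, and no source used here settles which was used. The authors deposited expected counts (estimated counts per gene symbol, not scaled to library size) for 26475 symbols. Per the submitters' processing notes the tools were Bowtie2 2.1.0 and RSEM 1.2.15 with hg38. The annotation, and whether counting used strand, are not given in these sources. Reads of a gene and its antisense partner may therefore not be told apart. In most of the groups summed above, reads were divided between genes on opposite strands, so there they were not told apart.

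Expected counts were rounded to whole numbers and tested with edgeR 4.0.16 in R 4.3.3 (TMM factors, filterByExpr at a minimum count of 10, quasi-likelihood F test, Benjamini-Hochberg adjustment over 16417 genes), in 1 fit of the 3 groups. The SE of a log2 fold change is its absolute value over √F. CPM uses TMM-scaled library sizes (factors 0.957 to 1.03), and levels per kb use the median GENCODE 29 transcript length. Depth was 42483091 to 51298130 counts, which limits genes under about 1 CPM, and intervals from counts cover counting error only. The p-values measure the spread between libraries described as biological replicates.

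The rule named every member that passed the filter, with values in every library for members called in any comparison or at 1 CPM or more in any group. Of each companion or flanking list it named members called in any comparison, at most 4 by the smallest adjusted p at 10 µM. A few genes and sequences that the rule names are not reported here, and counts and sums include them. Members and lists were chosen with earlier results of these data known, and the lists were written from general knowledge. Sequences are from GENCODE 29 transcripts and from RefSeq windows on GRCh38.p14, which matched 20 of 39 members.

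Alternatives were RLE and upper-quartile factors, no filter or at least 1 CPM in 3 libraries, DESeq2 1.42.0, limma-voom (limma 3.58.1), edgeR's likelihood ratio test, a replicate block, splines of length and GC content (4 degrees of freedom), each library left out, fits of 2 groups, other thresholds and counts without genes of ribosomal RNA. Summing genes that divide reads was added after the data were seen. Libraries of a group differed well beyond counting noise, with a mean chi-square per gene of 5.43 to 325, so each was counted as 1 sample. The fit was tested on simulated data. Tables and plots used Python 3.11.15.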

Additional observations from a re-analysis of the deposited data

Results flagged for a closer look

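For 3 HOX genes the effect of TP-472 differed between its doses by the direct test of 10 µM against 5 µM in edgeR's fit of all 3 groups. HOXA13 lay lower at 10 µM by a log2 fold change of -2.18 (adjusted p = 0.0273), HOXB5 by -0.87 (adjusted p = 0.0181) and HOXB8 by -0.52 (adjusted p = 0.0228), and in each gene all 3 libraries at 10 µM lay below all 3 at 5 µM. HOXB8 stayed under the fold limit of 1.5. In 33 of the 36 members tested the direct test did not pass, which does not show that the doses act alike on them. The share of all genes that passed the direct test by the adjusted p alone is not given here. Nor is the share whose libraries did not overlap between the doses, so the 3 genes have no background beside them.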

How the results depend on the processing

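The 3 counts of members called higher were 0 under all 23 alternatives to the whole fit, except for 1 at 10 µM against DMSO by the adjusted p alone (HOXC13). Of the members called lower, the 2 at 5 µM became 1 with upper-quartile factors or the filter of 1 CPM in 3 libraries, 3 with DESeq2, limma-voom or the likelihood ratio test, 4 in a fit of those 2 groups and 0 at a fold of at least 2. The 6 at 10 µM became 7 with DESeq2 or limma-voom, 11 by the adjusted p alone and 3 at a fold of at least 2. The 2 between the doses became 0 in a fit of those 2 groups and 1 at a fold of at least 2. Leaving out 1 library at a time gave 1 to 4 members lower at 5 µM, 5 to 9 at 10 µM and 0 to 4 between the doses, and 0 members higher throughout. The lowest count between the doses came without replicate 2 at 5 µM and the highest counts without replicate 1 at 10 µM. The shares of all genes called under these alternatives are not given here, so these counts of members have no background beside them. The fits of 2 groups hold fewer libraries than the whole fit. Apart from the change of thresholds, the cause of these shifts was not tested. The labels number the replicates 1 to 3 in each group, but same-numbered libraries did not deviate together (correlations of -0.042 to 0.036), and the fit with a replicate block again called 2, 6 and 2 members lower.

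Over the 7 called genes in 3 comparisons, 492 alternative values were computed. None reversed its direction, 449 kept their side of the threshold, 29 lost a call and 14 gained one. The calls of HOXA13, HOXB5 and HOXB8 at 10 µM held under every alternative, and that of HOXA3 was lost in 7. HOXD1, HOXD3, HOXD4 and HOXD11, and HOXA2 and HOXA9, were limited by depth and by the spread at 10 µM. Reads divided between overlapping genes limit the separate values of HOXB6, of HOXA3 and HOXA4, and of HOXC4, HOXC5 and HOXC6. HOXB5, summed with HOXB6 above, had whole counts in 8 of the 9 libraries and was hardly affected.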
